A study of Mus musculus with 24 samples.

Results

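The 10 thymic lymphomas that the authors placed in their set without Ikzf1 mutation (called unmutated lymphomas below) were compared with 3 normal thymus samples, 13 of the 24 RNA libraries of the series. Membership follows the columns of the filtered count table that the authors made for lymphomas without an Ikzf1 mutation (lymphomas 18, 19, 20, 21, 22, 30, 31, 32, 34 and 35), because the sample labels do not give mutation status. The counts came from the authors' table of all samples. The remaining 11 libraries are lymphomas of the set with Ikzf1 mutations and were used here only to test whether a pattern differed between the sets. Per the labels, the lymphomas arose in female B6C3F1 mice, a cross of the C57BL/6 and C3H inbred strains, that received 4 weekly whole-body doses of 1.6 Gy carbon ions from an age of 4 to 5 weeks. The same irradiation label also stands on the normal thymus samples, so whether these came from irradiated animals cannot be told from the labels. Their titles carry "7W", which the labels do not explain. Age at lymphoma collection is not given. Suspended lymphoma cells or thymocytes gave the RNA, whose poly(A) fraction was sequenced, with 1 batch label on all libraries. No label ties a lymphoma to an animal of its own, so p-values describe only how far these samples spread, which may be technical.

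Ikzf1 encodes Ikaros, a zinc finger transcription factor of lymphocytes that restrains Notch-driven programs in developing T cells and is a tumour suppressor in mouse thymic lymphoma. Notch1 is a receptor that is cut after ligand binding, whereupon its inner domain enters the nucleus, joins Rbpj and Mastermind-like proteins and switches on genes such as Hes1, Dtx1, Ptcra and Myc. In the thymus this signal commits progenitors to the T lineage at the double-negative stage (neither CD4 nor CD8), after which cells assemble a T-cell receptor and pass through the double-positive stage to become mature CD4 or CD8 cells. The series sets lymphomas with and without Ikzf1 mutation against normal thymus and asks about partial deletion of chromosome 11.

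The unmutated lymphomas had 14998988 to 32200114 counts per library and the thymus samples 24543936 to 27544876. No 2 libraries agreed within sampling noise, and the closest pair, of thymus samples, differed by a chi-square of 9.73 per degree of freedom over genes. The libraries were compared with edgeR's quasi-likelihood test across 13121 genes in 1 fit of all 24 libraries, with Benjamini-Hochberg adjusted p-values. A gene was called at an adjusted p under 0.05, and "rose" or "fell" is used only for called genes. Levels are CPM, counts per 1000000 counts of the library scaled by TMM factors, and log2 fold changes are lymphoma minus thymus.

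Between the 10 unmutated lymphomas and thymus, 4642 genes were called. Of the tested genes, 2366 rose, which is 18%, and 2276 fell, which is 17.3%. Counts of list members that rose or fell, given below, are to be read beside these shares. At least a 2-fold rise was called for 1172 genes (8.93%) and at least a 2-fold fall for 1126 genes (8.58%). The median log2 fold change over all tested genes was 0.06. In all 10 lymphomas 1684 genes (12.8%) lay above the thymus range and 1986 genes (15.1%) lay below it. Leaving out thymus sample 1, 2 or 3 reduced the number of called genes to 2958, 2856 and 3284.

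The lymphomas differed far more from each other than the thymus samples did. The median SD of log2 expression was 0.34 among lymphomas and 0.13 among thymus samples, and 92.5% of genes had the larger SD among lymphomas. The first principal component, holding 38.6% of the variance, placed the 3 thymus samples (scores from 75.6 to 84.0) apart from the lymphomas (from -40.6 to -2.30). On the second component, with 14.3%, lymphomas 18 and 35 scored 63.3 and 52.0, lymphoma 31 scored -44.9 and the other 7 lay between -25.8 and 6.81. Lymphoma 20 stood apart on the third component, with 9.05% of the variance, at 66.5. Lymphomas 18 and 35 were each other's nearest library, although their Euclidean distance of 89.9 was longer than the shortest lymphoma pair at 69.3. Results that rest on lymphomas 18 and 35 are given below with and without them. The pair was picked on the second component, and genes at its low end include Ptcra, Rag1, Dtx1 and Notch3. Retests of such genes without the pair are therefore not independent of that choice. Without both, 4821 genes were called against thymus, 4325 of them also called with them.

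**Figure D1:**
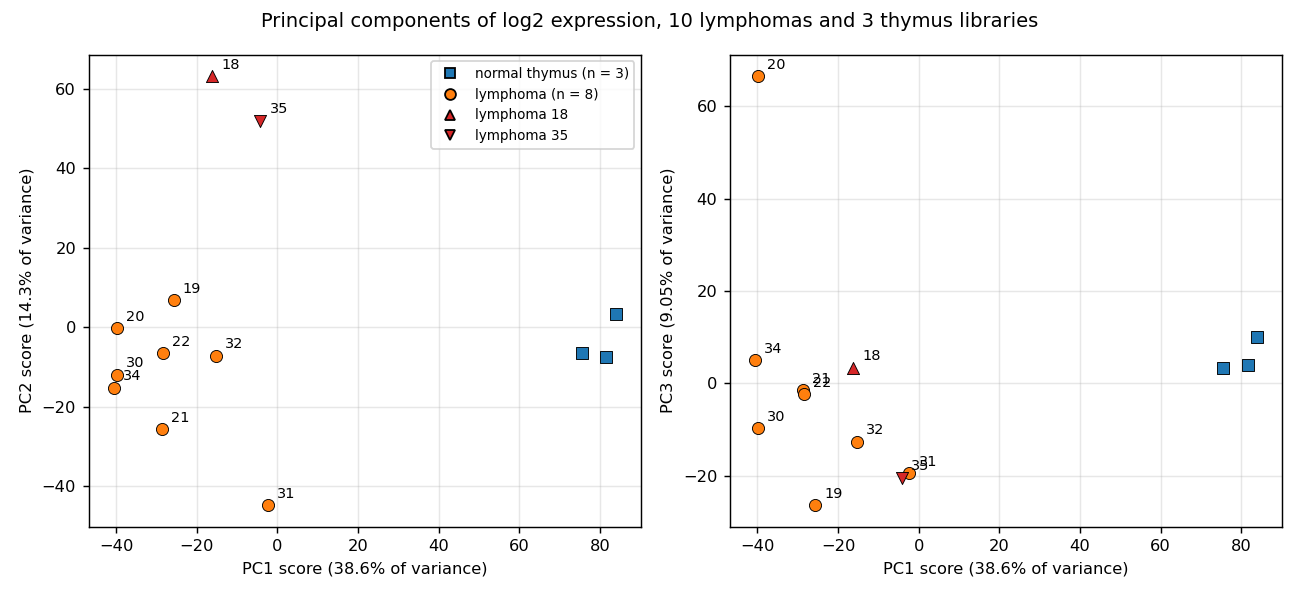
Scores of the 10 lymphomas (circles and triangles, numbered) and 3 thymus samples (squares) on principal components 1 and 2 (left) and 1 and 3 (right) of log2 CPM, with each component's share of the variance on its axis. The thymus samples lie together at the right, lymphomas 18 and 35 lie highest on component 2 (63.3 and 52.0), lymphoma 31 lowest (-44.9) and lymphoma 20 highest on component 3 (66.5).

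All 10 lymphomas expressed T-lineage genes, at lower levels than thymus. Cd3e, a signalling chain of the T-cell receptor complex, ranged from 162 CPM (lymphoma 34) to 361 CPM (lymphoma 31) with a median of 207 CPM, against 502, 609 and 459.7 CPM in thymus. No lymphoma reached the lowest thymus value, and Cd3e fell with a log2 fold change of -1.15 ± 0.23 (SE) and adjusted p = 0.000757. Of the 12 thymocyte and T-cell markers, 0 rose and 8 fell. The sum of their levels was 4673 CPM (lymphoma 20) to 12413 CPM (lymphoma 31) in lymphomas and 18007 to 19644 CPM in thymus. In bulk RNA, fewer cells of a type and less RNA per cell cannot be told apart. Bcl11b, a transcription factor that fixes T-cell commitment and is itself a tumour suppressor in mouse thymic lymphoma, ranged from 180.1 CPM (lymphoma 18) to 629.6 CPM (lymphoma 31) with a median of 302 CPM, against 1000.4, 1014 and 973 CPM. It fell, and no lymphoma overlapped thymus (log2 fold change of -1.52 ± 0.28 (SE), adjusted p = 0.000276).

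Ikzf1 itself (chr11:11685003-11772926, plus strand, GRCm38) remained expressed in all 10 lymphomas. Its level ranged from 430.4 CPM (lymphoma 31) to 1011 CPM (lymphoma 32) with a median of 540.2 CPM, and was 1049.6, 835 and 1024 CPM in thymus. Of the 10 values, 8 lay below the thymus range, while lymphomas 35 and 32 were within it. The difference did not pass the test (log2 fold change of -0.70 ± 0.51 (SE), adjusted p = 0.291), but it did in the fit of the 13 libraries alone (adjusted p = 0.0257). Among the relatives of Ikaros, Ikzf4 was 12.1 to 15.3 CPM in thymus and 0.733 to 3.52 CPM, median 1.78 in lymphomas, and fell (log2 fold change of -2.70 ± 0.51 (SE), adjusted p = 0.000391). Ikzf2, which encodes Helios, ranged from 39.1 CPM (lymphoma 20) to 216 CPM (lymphoma 18) with a median of 128 CPM against 182, 179 and 149 CPM and did not pass (adjusted p = 0.511). Of the 5 family members, 0 rose and 1 fell, and their median log2 fold change was -0.43.

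The genes beside Ikzf1 on chromosome 11 differed from it and from each other. Ddc, which encodes the decarboxylase that makes dopamine and serotonin and has a transcript initiated near Grb10, lies at chr11:11814101-11898144, minus strand. Its level ranged from 10.2 CPM (lymphoma 19) to 110.1 CPM (lymphoma 35) with a median of 59.6 CPM, against 1.29, 2.21 and 1.86 CPM in thymus. Every lymphoma was above every thymus sample, and Ddc rose with a log2 fold change of 5.08 ± 1.62 (SE) and adjusted p = 0.0183. That call was lost without any 1 of the thymus samples, with an adjusted p of 0.0779, 0.0675 and 0.0654 for samples 1, 2 and 3, and with limma-voom (adjusted p = 0.121). Grb10, an imprinted adaptor that dampens insulin and growth factor signalling (chr11:11930508-12038683, minus strand), ranged from 0.0637 CPM (lymphoma 32) to 22.2 CPM (lymphoma 35) with a median of 1.13 CPM, against 0.323, 0.237 and 0.329 CPM. Lymphomas 35, 34, 30 and 21 were at or above 8.19 CPM, 3 lymphomas were below every thymus sample, and the difference did not pass (log2 fold change of 4.12 ± 1.92 (SE), adjusted p = 0.0974), though it did with DESeq2 (adjusted p = 0.00914). Fignl1, a factor of homologous recombination (chr11:11787431-11808962, minus strand), spanned 53.9 to 184 CPM, median 105 in lymphomas and 70.9 to 109 CPM in thymus, overlapping groups with adjusted p = 0.62. Cobl, another neighbour, had too few counts to be tested.

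Because the series asks about loss of part of chromosome 11, median log2 ratios to thymus were taken in 5 Mb windows holding at least 10 genes. Lymphomas 30 and 31 were low over the first pair of windows, with -0.98 and -0.83 from 0 to 5 Mb and -1.08 and -0.82 from 5 to 10 Mb. The other 8 lymphomas lay between -0.20 and 0.16 there. From 20 to 25 Mb, lymphoma 18 had -1.15 and lymphoma 31 had -0.73, with the other 8 between -0.24 and 0.17. The window from 10 to 15 Mb, which holds Ikzf1, Ddc and Grb10, had too few genes for a median. Over the whole of chromosome 11, the 10 lymphoma medians lay between -0.19 and 0.00. These are expression ratios, and no copy number was measured.

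Notch signalling genes split the lymphomas into 8 with high and 2 with low levels, and the 2 were lymphomas 18 and 35. Notch1 was 52.3 CPM in lymphoma 18 and 179.7 CPM in lymphoma 35, and 725 to 2257 CPM in the other 8, with a median over all 10 of 985 CPM. In thymus it was 241, 227 and 289.7 CPM. Thus 8 lymphomas were above and 2 below the thymus range, and the test over all 10 did not pass (log2 fold change of 1.95 ± 0.93 (SE), adjusted p = 0.104). It passed with DESeq2 (adjusted p = 0.0405) and with lymphomas 18 and 35 left out (log2 fold change 2.25, adjusted p = 0.0333). That pair was picked after the data were seen and holds the 2 lowest Notch1 levels, so the retest is not independent of the choice. Notch3, a receptor that is itself switched on by Notch1, had the same order, with 2.36 and 37.8 CPM in lymphomas 18 and 35 and 169.9 to 571 CPM in the others, against 83.8, 78 and 95.3 CPM. Its test over all 10 gave adjusted p = 0.333. Of the 6 ligands and receptors tested, 0 rose and 0 fell, and the median log2 fold change was 1.04. Dll1, Dll4 and Notch4 had too few counts to be tested.

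The target genes behaved in 2 ways. Ptcra, the pre-T-cell receptor alpha chain, was 0.0956 and 0.25 CPM in lymphomas 18 and 35 and 58.1 to 278 CPM in the other 8, against 46.1, 54.1 and 57.4 CPM in thymus. Dtx1, a ubiquitin ligase and Notch target, was 5.99 and 9.56 CPM against 106 to 785 CPM, with 37.7, 51.4 and 40.4 CPM in thymus. Nrarp, a feedback inhibitor of Notch, was 5.42 and 2.21 CPM against 29.8 to 127 CPM, with 7.68, 7.78 and 8.88 CPM in thymus. For each of these 3 genes lymphomas 18 and 35 lay below the thymus range and the other 8 above it, and none passed the test over all 10 (adjusted p = 0.511, 0.139 and 0.0846). With lymphomas 18 and 35 left out, the adjusted p was 0.277 for Ptcra, 0.0613 for Dtx1, 0.0354 for Nrarp and 0.182 for Notch3. That pair was picked on a component that Ptcra, Dtx1 and Notch3 themselves help to define. Hes1 and Heyl, repressors switched on by Notch, instead rose, with all 10 above thymus. Hes1 ranged from 28.2 CPM (lymphoma 35) to 105 CPM (lymphoma 32) with a median of 62.6 CPM against 6.13, 8.02 and 9.21 CPM (log2 fold change of 2.99 ± 0.80 (SE), adjusted p = 0.00597). Heyl ranged from 3.89 CPM (lymphoma 35) to 309 CPM (lymphoma 20) with a median of 107 CPM, with lymphoma 18 at 4.46 CPM, against 1.04, 1.3 and 1.46 CPM (log2 fold change of 6.28 ± 1.42 (SE), adjusted p = 0.00174). Neither was called by limma-voom (adjusted p = 0.238 and 0.274). Of the 18 targets, 3 rose (Myc, Heyl and Hes1) and 2 fell (Cd3e and Tcf7), with a median of 0.61. As a count this does not exceed the 18% and 17.3% of all tested genes.

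Among genes that process Notch or carry its signal in the nucleus, 2 of 18 rose and 7 fell, with a median log2 fold change of -0.36. Only 4 fell without thymus sample 1, and none rose without sample 2. Fbxw7, the ubiquitin ligase subunit that marks the Notch1 inner domain and Myc for destruction, ranged from 37.9 CPM (lymphoma 30) to 66.2 CPM (lymphoma 31) with a median of 42.7 CPM against 78.3, 84.2 and 78.6 CPM. All 10 lymphomas were below thymus, and it fell with a log2 fold change of -0.81 ± 0.13 (SE) and adjusted p = 8.3e-05. The coactivators Maml1 and Maml2 fell (log2 fold change -0.65 and -2.40) while Maml3 rose (1.65, adjusted p = 0.0125). Without thymus sample 1 or 2, Maml3 was not called (adjusted p = 0.0524 and 0.0599), nor with limma-voom (0.0925).

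**Figure D2:**
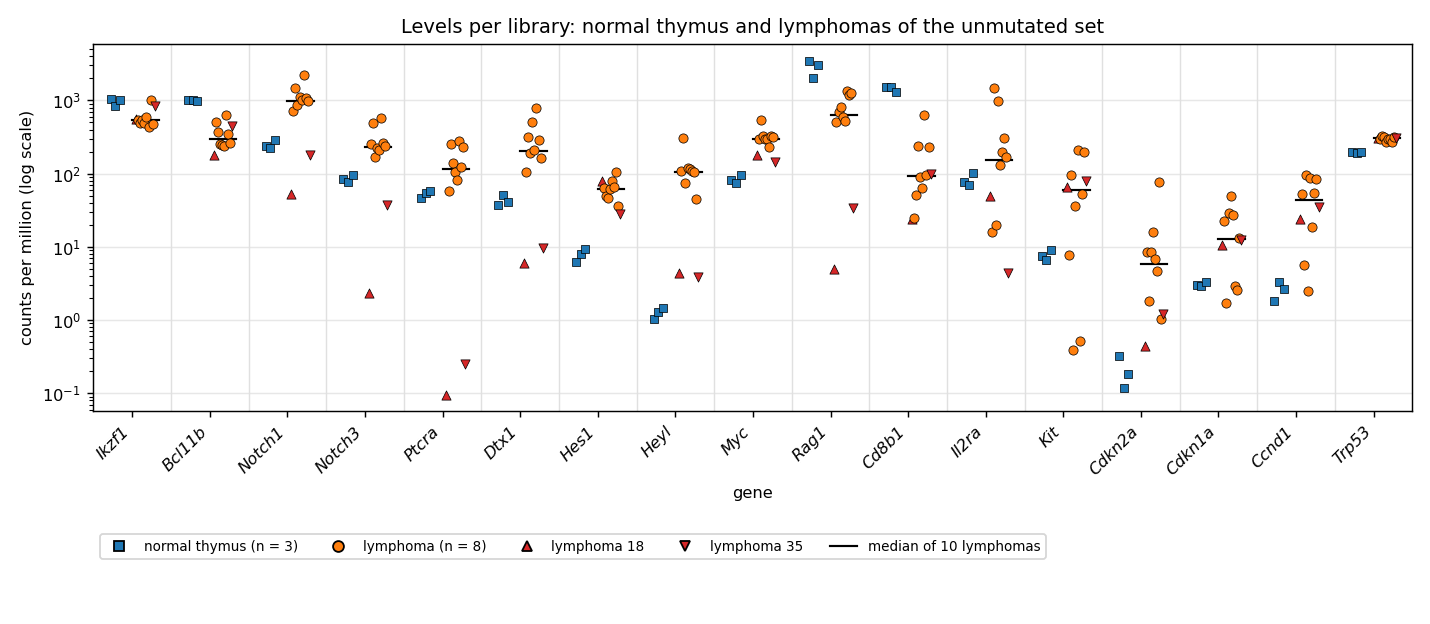
CPM on a log axis for 17 genes in the 3 thymus samples (blue squares), 8 lymphomas (orange circles) and lymphomas 18 and 35 (red triangles), with a line at the median of the 10 lymphomas. Lymphomas 18 and 35 lie below thymus for Notch1, Notch3, Ptcra and Dtx1, where the other 8 lie above it. Bcl11b, Rag1 and Cd8b1 lie below thymus, and Hes1, Heyl, Myc, Cdkn2a and Trp53 above it, in all 10.

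Myc rose, and lay above thymus in every lymphoma. This transcription factor, which drives growth and ribosome production, lies at chr15:61985391-61990374, plus strand, and its level ranged from 145 CPM (lymphoma 35) to 537 CPM (lymphoma 20) with a median of 299 CPM, against 81.4, 75.4 and 94.6 CPM. The 2 lowest values were those of lymphomas 35 and 18, and still no lymphoma overlapped thymus (log2 fold change of 1.82 ± 0.34 (SE), adjusted p = 0.000335). Mycn, the family member of early progenitors, was at 0 in 6 lymphomas and at most 0.5 CPM in the others, against 4.05, 3.4 and 4.79 CPM, and fell (log2 fold change of -5.72 ± 1.12 (SE), adjusted p = 0.000556). In the Myc and Max network 1 of 12 members rose and 5 fell. Besides Mycn these were Mxd1 (-1.32), Mxd3 (-1.04), Mnt (-0.45) and Mlx (-0.71), of which Mxd1, Mxd3 and Mnt are known as repressors that compete with Myc.

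Ribosome biogenesis genes, known targets of Myc, rose together. Of 28 members, 26 rose and 0 fell, with a median log2 fold change of 1.11, and 25 had all 10 lymphomas above the thymus range. Over all alternatives of processing, 25 to 27 members rose. Their summed level was 5958 CPM in lymphoma 31, the lowest, 9055 CPM at the median and 11850.5 CPM in lymphoma 34, the highest, against 4174 to 4642 CPM in thymus. Polr1b, a core subunit of the polymerase that makes ribosomal RNA, ranged from 61.6 CPM (lymphoma 31) to 143 CPM (lymphoma 20) with a median of 107 CPM against 34.1, 31 and 37.8 CPM (log2 fold change of 1.60 ± 0.22 (SE), adjusted p = 2.53e-05). Nucleolin (Ncl) and nucleophosmin (Npm1), abundant nucleolar proteins, rose with log2 fold changes of 0.80 and 1.09. Lymphoma 31 had the lowest value of both (1309.6 and 1011 CPM).

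Myc and Max bind the E-box CACGTG, which reads the same on both strands, and the 250 bases before each gene start were searched for it in the RefSeq promoter table (GRCm38.p6). The search was chosen with the expression values known. The motif was found in 962 of 10036 promoters of tested genes (9.59%) and in 1 of the 24 ribosome biogenesis promoters in the table. That promoter belongs to Nop2, a ribosomal RNA methyltransferase, which ranged from 95.5 CPM (lymphoma 31) to 193 CPM (lymphoma 34) with a median of 149 CPM against 62.9, 59.7 and 64.8 CPM and rose by 1.26 on the log2 scale (adjusted p = 0.000123). It is shown as the only match, at chr6:125131633-125131882 on the plus strand, with the E-box in capitals beginning 60 bases before the start.
Nop2: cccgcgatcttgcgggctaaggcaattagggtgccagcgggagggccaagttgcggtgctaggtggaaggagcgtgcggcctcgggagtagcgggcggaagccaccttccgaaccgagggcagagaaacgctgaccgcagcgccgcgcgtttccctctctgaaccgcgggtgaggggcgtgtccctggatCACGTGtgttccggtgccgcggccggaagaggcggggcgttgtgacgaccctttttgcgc
A match describes the letters in this window and is not evidence of binding.

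Markers of the double-positive stage fell in these lymphomas. Of 19 tested, 0 rose and 12 fell, with a median log2 fold change of -2.03, and 17 had all 10 lymphomas below thymus. Their summed level was 4199 CPM (lymphoma 19) to 10422 CPM (lymphoma 31), against 19456 to 22015 CPM. Satb1, a chromatin organiser of thymocytes, ranged from 427 CPM (lymphoma 35) to 1190.5 CPM (lymphoma 31) with a median of 633 CPM against 3405, 3242 and 3095 CPM (log2 fold change of -2.26 ± 0.22 (SE), adjusted p = 3.72e-07). The CD8 chain gene Cd8b1 ranged from 23.8 CPM (lymphoma 18) to 637 CPM (lymphoma 31) with a median of 92.4 CPM against 1503, 1501 and 1290.2 CPM (log2 fold change of -3.20 ± 0.67 (SE), adjusted p = 0.000956). Lymphoma 31 was the highest for both, and for Rmnd5a, a ubiquitin ligase component used as a marker of this stage (856 CPM against 189 to 335 CPM in the other 9 and 1658 to 2113 CPM in thymus). Rag1, whose product cuts antigen receptor genes, was 4.91 and 33.7 CPM in lymphomas 18 and 35, 501 to 1364 CPM in the others, and 3487, 2001 and 3038 CPM in thymus. All 10 were below thymus, but its test gave adjusted p = 0.0524, and 0.0232 without lymphomas 18 and 35. Rag1 itself helps to define the component on which that pair was picked. It was also called without lymphoma 18, 31 or 32 alone (0.0331, 0.0407 and 0.0486). Its partner Rag2 fell, with 0.0319 to 39.4 CPM, median 9.78 against 292 to 335 CPM (log2 fold change of -4.42 ± 1.07 (SE), adjusted p = 0.00295).

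Markers of the earlier double-negative stage and of mature thymocytes were less uniform. Of 14 double-negative markers tested, 0 rose and 1 fell (Mycn). Il2ra, the interleukin-2 receptor alpha chain, ranged from 4.39 CPM (lymphoma 35) to 1459.7 CPM (lymphoma 20) with a median of 152 CPM against 76.2, 70.1 and 103 CPM, and Kit, the stem cell factor receptor, ranged from 0.393 CPM (lymphoma 21) to 211 CPM (lymphoma 30) with a median of 59 CPM against 7.5, 6.71 and 9.13 CPM. For Il2ra, 6 lymphomas were above thymus and 4 below. For Kit, 7 were above and 2, lymphomas 21 and 31, were below, and neither gene passed (adjusted p = 0.313 and 0.0563). Kit was called without lymphoma 19, 21 or 31 (adjusted p = 0.0452, 0.0276 and 0.0251) and by DESeq2 (adjusted p = 0.007). Of 20 mature thymocyte markers, 0 rose and 7 fell. Cd69, an early activation marker of selected thymocytes, ranged from 0.308 CPM (lymphoma 34) to 11.3 CPM (lymphoma 19) with a median of 7.88 CPM against 113, 110.1 and 92 CPM (log2 fold change of -4.02 ± 0.63 (SE), adjusted p = 7.39e-05), and the homing receptor Ccr7 fell with a log2 fold change of -3.70 (adjusted p = 0.000575).

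T-cell receptor subunits and the kinases and adaptors that signal from them also fell. Of 25, 0 rose and 17 fell, against 17.3% of all tested genes, and the median log2 fold change was -1.14. Cd27, a costimulatory receptor, ranged from 85.7 CPM (lymphoma 20) to 209.6 CPM (lymphoma 32) with a median of 151 CPM against 498, 549 and 418 CPM (log2 fold change of -1.70 ± 0.19 (SE), adjusted p = 2.54e-06). Cd5, which dampens receptor signals, ranged from 1.21 CPM (lymphoma 20) to 125 CPM (lymphoma 31) with a median of 43.2 CPM against 394, 409.7 and 329.5 CPM, lowest in lymphomas 20 and 34, and fell with a log2 fold change of -2.92 (adjusted p = 0.00199). Rasgrp1, the activator that links the receptor to Ras, had the same 2 lymphomas at the bottom, with 8.19 and 13 CPM, and 37.1 to 262 CPM in the other 8, against 788, 626 and 690.0 CPM (log2 fold change of -2.51 ± 0.61 (SE), adjusted p = 0.00303). Of 19 T-lineage transcription factors, 0 rose and 7 fell, with Ets1 (log2 fold change -0.82, adjusted p = 0.00487) and Myb (-0.98, adjusted p = 0.00143) among them. Tcf7 had the smallest called difference of these (-0.59, adjusted p = 0.0393), and without thymus sample 1, 2 or 3 it was not called (adjusted p = 0.169, 0.0727 and 0.119), nor without lymphoma 19, 30 or 34 (0.0508, 0.054 and 0.0527).

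Of the 18 transcription factors known as oncogenes of human T-cell acute leukaemia, 12 had too few counts to be tested, Tal1, Lmo1, Tlx1 and Tlx3 among them. Hmga1, a chromatin protein, was 3.87 to 4.24 CPM in thymus and 7.07 to 12.4 CPM, median 8.74 in lymphomas, and rose (log2 fold change of 1.18 ± 0.27 (SE), adjusted p = 0.002). Hoxa7 and Hoxa5 fell, and Hoxa7 was at 0 in 6 lymphomas against 3.59, 3.36 and 3.73 CPM in thymus (log2 fold change of -5.95 ± 1.02 (SE), adjusted p = 0.000165).

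Of 20 growth factor and cytokine receptors 2 rose and 5 fell, beside 18% and 17.3% of all tested genes. Il4ra, the interleukin-4 receptor alpha chain, ranged from 5.14 CPM (lymphoma 34) to 29.99 CPM (lymphoma 18) with a median of 15.6 CPM against 231, 239.9 and 202 CPM and fell furthest among them (log2 fold change of -3.78 ± 0.55 (SE), adjusted p = 3.56e-05). Il21r and Ifngr1 fell as well (log2 fold change -2.26 and -1.36). Pdgfrb, a platelet-derived growth factor receptor, ranged from 20.7 CPM (lymphoma 31) to 291 CPM (lymphoma 32) with a median of 91.8 CPM against 5.63, 5.73 and 7.53 CPM, with every lymphoma above thymus (log2 fold change of 4.35 ± 1.33 (SE), adjusted p = 0.0144). Its call was lost without thymus sample 1, 2 or 3 (adjusted p = 0.0631, 0.0651 and 0.0511) and with limma-voom (0.259). Pdgfra, its partner, rose as well (log2 fold change of 5.71 ± 1.49 (SE), adjusted p = 0.00525), but stayed at 0.262 to 2.3 CPM in 9 lymphomas, against 0.0359 to 0.118 CPM in thymus, and only lymphoma 18 was higher at 25.9 CPM. Without it the log2 fold change of Pdgfra was 3.97. The fibroblast marker list, which holds both genes, is given with the other cell types below, and its part in these rises was not tested.

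Of 25 members of the Ras and PI3K pathway, 1 rose (Sos2) and 8 fell, with a median of -0.39. The number that fell was 6, 6 and 5 without thymus sample 1, 2 or 3. Sos2 was not called without thymus sample 1 or 2 (adjusted p = 0.0595 and 0.184). The falls included Pik3ca, a catalytic subunit of PI3K (-0.78, adjusted p = 1.35e-05), Nras (-0.57, adjusted p = 3.43e-05) and the Ras pathway inhibitor Spry2 (-3.87, adjusted p = 0.0101).

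The D-type cyclins moved in opposite directions. Ccnd3, the main D cyclin of thymocytes, ranged from 263 CPM (lymphoma 20) to 815 CPM (lymphoma 22) with a median of 397 CPM against 1978, 2334 and 2033 CPM and fell, with every lymphoma below thymus (log2 fold change of -2.18 ± 0.32 (SE), adjusted p = 3.46e-05). Ccnd2 fell too, with 0.884 to 36.8 CPM, median 6.95 against 122 to 142 CPM (adjusted p = 0.0135). Ccnd1 ranged from 2.47 CPM (lymphoma 22) to 95.9 CPM (lymphoma 21) with a median of 43.9 CPM against 1.83, 3.36 and 2.67 CPM, above the thymus range in 9 of 10 lymphomas, and rose (log2 fold change of 4.13 ± 1.33 (SE), adjusted p = 0.0188). The Ccnd1 call was lost without thymus sample 1, 2 or 3 (adjusted p = 0.081, 0.0646 and 0.0661) and with limma-voom (0.387). Of the cyclin partners, Cdk4 rose with a log2 fold change of 0.80 (adjusted p = 0.00146).

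Inhibitors of these kinases diverged. Cdkn2a (chr4:89274471-89294653, minus strand) encodes p16Ink4a and p19Arf from overlapping transcripts that the counts do not separate. It ranged from 0.446 CPM (lymphoma 18) to 75.7 CPM (lymphoma 32) with a median of 5.76 CPM against 0.323, 0.118 and 0.183 CPM, and all 10 lymphomas were above thymus, lymphoma 18 only just. It rose with a log2 fold change of 5.86 ± 1.79 (SE) and adjusted p = 0.0139, a call lost without thymus sample 2 or 3 (adjusted p = 0.068 and 0.0573) and with limma-voom (0.201). Without lymphoma 32 the log2 fold change was 4.66. Cdkn1a, which encodes p21, ranged from 1.72 CPM (lymphoma 20) to 49.1 CPM (lymphoma 22) with a median of 13 CPM against 3.01, 2.92 and 3.29 CPM. In 7 lymphomas it was above thymus and in 3 (20, 32 and 31) below, and its call was marginal (log2 fold change of 2.47 ± 0.96 (SE), adjusted p = 0.0469). It was lost in the 13-library fit (adjusted p = 0.0539), with limma-voom (0.237), without thymus sample 1, 2 or 3 (0.131, 0.138 and 0.115) and without lymphoma 19, 21, 22, 30 or 34 (from 0.052 to 0.0709). Cdkn1b and Cdkn2d, the p27 and p19Ink4d inhibitors of resting cells, fell with log2 fold changes of -1.89 and -2.06 (adjusted p = 1.76e-05 and 1.09e-05). In the list of 21, 7 rose and 6 fell, and 3, 2 or 3 rose without thymus sample 1, 2 or 3.

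Trp53 changed evenly across the set. It ranged from 272 CPM (lymphoma 22) to 330.1 CPM (lymphoma 20) with a median of 303 CPM in lymphomas and was 195, 192 and 197 CPM in thymus, so that all 10 lymphomas lay above thymus within a narrow band (log2 fold change of 0.63 ± 0.11 (SE), adjusted p = 0.000167). Of 24 genes, p53 and its known targets, 6 rose and 8 fell, and 3 rose without thymus sample 2. Sesn2 and Aen, a stress sensor and a nuclease, rose (log2 fold change 1.64 and 1.17), while the death receptor gene Fas (-2.87, adjusted p = 0.00169) and the antiproliferative gene Btg2 (-1.97, adjusted p = 0.000144) fell. Mdm2, which both targets p53 and is its target, ranged from 76.9 CPM (lymphoma 34) to 135 CPM (lymphoma 20) with a median of 99.6 CPM against 151, 141 and 144 CPM and fell (adjusted p = 0.00328).

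In the Bcl2 family of survival and cell death genes 1 of 15 rose and 3 fell, beside 18% and 17.3% of all tested genes. Bcl2l1, whose product protects double-positive thymocytes, ranged from 27.3 CPM (lymphoma 19) to 149 CPM (lymphoma 31) with a median of 38.9 CPM against 347, 377 and 338 CPM, with lymphoma 31 highest (log2 fold change of -2.73 ± 0.46 (SE), adjusted p = 0.000133). The survival genes Bcl2 and Mcl1 fell too. Bcl2 ranged from 0.77 CPM (lymphoma 34) to 47.3 CPM (lymphoma 32) with a median of 24 CPM against 102, 114 and 94.9 CPM (log2 fold change of -2.06 ± 0.59 (SE), adjusted p = 0.00966), and Mcl1 fell by 1.82-fold (adjusted p = 0.000382). Bak1, which promotes cell death, rose (0.66 on the log2 scale, adjusted p = 0.00108).

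**Figure D3:**
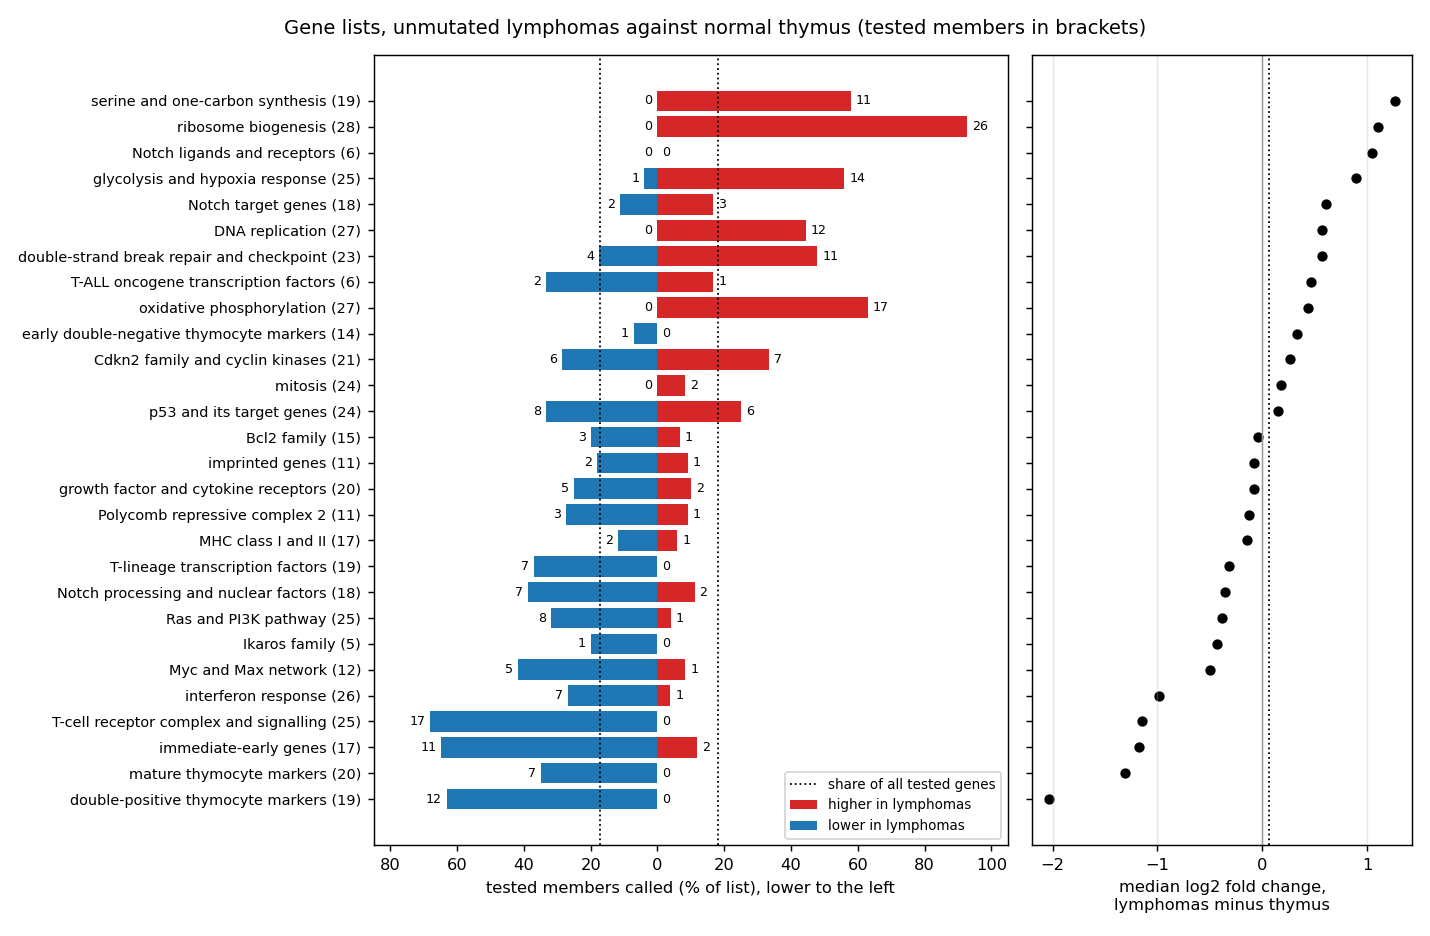
Left: percentage of each gene list's tested members called higher (red) or lower (blue) in the 10 lymphomas than in thymus, with the number called at the bar end and dotted lines at the shares of all tested genes (18% and 17.3%). Right: median log2 fold change of each list, with a dotted line at 0.06 for all genes. Ribosome biogenesis has 26 of 28 higher and double-positive markers have the lowest median, -2.03.

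Metabolic genes rose in 3 lists. Of 25 glycolysis and hypoxia genes, 14 rose and 1 fell, with a median log2 fold change of 0.90. Ldha, which makes lactate, ranged from 1240.5 CPM (lymphoma 32) to 2104 CPM (lymphoma 34) with a median of 1691 CPM against 627, 661 and 704 CPM (log2 fold change of 1.35 ± 0.19 (SE), adjusted p = 2.58e-05). Egln3, an oxygen sensor induced by hypoxia, rose (2.41, adjusted p = 4.72e-05), as did the lactate exporter Slc16a3 (3.28, adjusted p = 0.00459, not called by limma-voom at 0.0746). Several members, such as Gapdh, Pgk1 and Pgam1, have near-identical pseudogene copies, so their counts are uncertain. Of 27 oxidative phosphorylation genes, 17 rose and 0 fell, by less (median 0.44), and 8 rose when thymus sample 1 was left out. Atp5b, a subunit of ATP synthase, ranged from 1773 CPM (lymphoma 31) to 2473 CPM (lymphoma 20) with a median of 1989.7 CPM against 1265, 1150.3 and 1339 CPM (log2 fold change of 0.71 ± 0.17 (SE), adjusted p = 0.00233).

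The serine and one-carbon list had a median log2 fold change of 1.27, with 11 of 19 genes rising and 0 falling. Without thymus sample 1, 2 or 3, 6, 6 and 7 rose. Phgdh, the first enzyme of serine synthesis, ranged from 296 CPM (lymphoma 31) to 689 CPM (lymphoma 34) with a median of 518 CPM against 176, 184 and 214 CPM (log2 fold change of 1.45 ± 0.27 (SE), adjusted p = 0.000398). Psat1, the next enzyme, and Shmt2, which passes serine carbon to folate in mitochondria, rose with log2 fold changes of 1.76 and 1.70 (adjusted p = 0.00103 and 0.000859). Lymphoma 22 had the highest level of both. Asns, asparagine synthetase and a target of the stress factor Atf4, ranged from 9.49 CPM (lymphoma 32) to 302 CPM (lymphoma 22) with a median of 42.5 CPM against 1.18, 1.46 and 4.13 CPM, with all 10 above thymus (log2 fold change of 5.16 ± 1.97 (SE), adjusted p = 0.044). Chac1, a glutathione-degrading enzyme also under Atf4, was 0.0982 and 0.156 CPM in lymphomas 31 and 20, 1.23 to 13.1 CPM in the others and 0, 0 and 0.146 CPM in thymus (log2 fold change of 6.40 ± 1.98 (SE), adjusted p = 0.0153). Without thymus sample 1 or 2 neither was called (adjusted p = 0.143 and 0.144 for Asns, 0.0716 and 0.0739 for Chac1). Without thymus sample 3, or without lymphoma 21, 22 or 30, Asns was not called either (adjusted p = 0.0891, 0.0528, 0.0617 and 0.0573). Neither Asns nor Chac1 was called by limma-voom (0.16 and 0.0917).

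Atf4 and its partners bind the amino acid response element TGATGNAA, and the same promoter windows were searched for it on both strands, again with the values known. It was found in 247 of 10036 promoters (2.46%) and in 3 of the 16 serine and one-carbon promoters in the table, those of Asns, Chac1 and Slc7a11. None of these 3 encodes an enzyme of serine or one-carbon synthesis. The list was made to hold Atf4 and genes known to be under it, Asns and Chac1 among them, so its share of matches depends on that choice. Slc7a11, the cystine transporter, was not called (-0.96, adjusted p = 0.361). The windows of the 2 matching genes that rose are given, each read along the gene's own strand with the match in capitals. The Asns window is chr6:7693210-7693459 on the minus strand, with the motif beginning 23 bases before the start, and the Chac1 window is chr2:119350992-119351241 on the plus strand, with the match, here the reverse complement of the motif, beginning 193 bases before it.
Asns: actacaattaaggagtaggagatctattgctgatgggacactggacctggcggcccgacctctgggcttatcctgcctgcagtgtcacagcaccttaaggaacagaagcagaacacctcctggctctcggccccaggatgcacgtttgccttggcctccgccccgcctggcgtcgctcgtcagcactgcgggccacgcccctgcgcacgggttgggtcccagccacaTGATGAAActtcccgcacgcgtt
Chac1: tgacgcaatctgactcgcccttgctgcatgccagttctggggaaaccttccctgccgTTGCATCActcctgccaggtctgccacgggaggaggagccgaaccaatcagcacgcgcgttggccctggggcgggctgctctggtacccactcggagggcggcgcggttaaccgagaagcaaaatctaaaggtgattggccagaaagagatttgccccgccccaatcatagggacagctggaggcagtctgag
A match says nothing of which factor acted there.

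Replication genes rose in part. Of 27, 12 rose and 0 fell, with a median of 0.57, but 4, 2 and 9 rose without thymus sample 1, 2 or 3, and 8 without lymphoma 19. Mcm6, a subunit of the replicative helicase, ranged from 528 CPM (lymphoma 20) to 1102 CPM (lymphoma 34) with a median of 845 CPM against 452, 379 and 534 CPM, above thymus in all but lymphoma 20 (log2 fold change of 0.88 ± 0.25 (SE), adjusted p = 0.00807, and 0.0622 without thymus sample 2). Of 24 mitosis genes, 2 rose (Bub1b and Ccnb1) and 0 fell, while 4 rose in the 13-library fit and with DESeq2, and 5 without thymus sample 3. Their summed level in thymus spanned 4265 to 6654 CPM, which covers 5 of the 10 lymphomas. Bub1b, a spindle checkpoint kinase, ranged from 333 CPM (lymphoma 18) to 748 CPM (lymphoma 31) with a median of 506 CPM against 219, 167 and 276 CPM (log2 fold change of 1.16 ± 0.25 (SE), adjusted p = 0.0013). Ccnb1, the mitotic cyclin B1, was not called without thymus sample 1 or 2 (adjusted p = 0.127 and 0.255) or without lymphoma 19, 20, 21, 22, 30, 31, 34 or 35 (from 0.0502 to 0.0682).

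Of 23 genes of double-strand break repair and its checkpoint, 11 rose and 4 fell, with a median of 0.57. Without thymus sample 1, 2 or 3, 6, 4 and 8 rose. Chek2, a checkpoint kinase, ranged from 32.6 CPM (lymphoma 20) to 52.1 CPM (lymphoma 34) with a median of 42.5 CPM against 25.2, 23.2 and 26 CPM (log2 fold change of 0.77 ± 0.13 (SE), adjusted p = 0.000156), and the break sensor Nbn rose with 1.10 (adjusted p = 0.000886). Xrcc4 and Nhej1, which fell, encode ligation factors of non-homologous end joining (-1.02 and -1.07, adjusted p = 0.00108 and 0.00141). Xrcc6, the Ku70 end-binding protein of the same pathway, ranged from 699 CPM (lymphoma 35) to 2113 CPM (lymphoma 32) with a median of 1622 CPM against 512, 581 and 545 CPM, lowest in lymphomas 35 and 18, and rose (log2 fold change of 1.48 ± 0.41 (SE), adjusted p = 0.00714).

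Immediate-early genes, transcribed within minutes of a receptor signal, fell in 11 of 17 cases and rose in 2. Their median log2 fold change was -1.18. Egr1, a zinc finger factor downstream of Ras and Erk, ranged from 1.39 CPM (lymphoma 34) to 57.2 CPM (lymphoma 19) with a median of 19.4 CPM against 236, 212 and 175 CPM (log2 fold change of -3.25 ± 0.69 (SE), adjusted p = 0.00103). The nuclear receptor gene Nr4a3, a readout of T-cell receptor signals, was 26.8 to 33.9 CPM in thymus and 0.514 to 5.94 CPM, median 1.07 in lymphomas, and fell (log2 fold change of -3.88 ± 0.59 (SE), adjusted p = 5.08e-05). Atf3, a stress factor, rose (2.91, adjusted p = 0.00733).

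Interferon response genes had a median of -0.99 over 26 members, of which 1 rose and 7 fell. The number that fell was 3 without thymus sample 1, 2 or 3, 4 without lymphoma 20 or 34, and 12 with limma-voom. Gbp4, an interferon-induced GTPase, ranged from 16.7 CPM (lymphoma 20) to 99.9 CPM (lymphoma 31) with a median of 51.7 CPM against 229, 206 and 207 CPM (log2 fold change of -2.07 ± 0.37 (SE), adjusted p = 0.000257). Irf7, which amplifies the response, was 4.31 to 9.25 CPM in 7 lymphomas and 30.02, 30.9 and 39.8 CPM in lymphomas 18, 35 and 19, against 39.9, 47.6 and 41.7 CPM, and was not called (adjusted p = 0.125, though 0.0072 with limma-voom). Of 17 MHC genes, 1 rose and 2 fell, beside 18% and 17.3% of all tested genes. The nonclassical class I gene H2-T23 fell (-2.12, adjusted p = 0.00037), while the classical class I genes share sequence and are uncertain.

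Of the 11 subunits of Polycomb repressive complex 2, which silences genes, 1 rose and 3 fell, beside 18% and 17.3% of all tested genes. The catalytic subunit Ezh2 ranged from 176 CPM (lymphoma 21) to 423 CPM (lymphoma 35) with a median of 367 CPM against 412, 355 and 472 CPM and was not called (adjusted p = 0.367), with lymphoma 21 lowest. Its relative Ezh1 fell (-0.93, adjusted p = 0.0011). Of 11 imprinted genes tested, 1 rose and 2 fell, beside the same shares. Kcnq1, a potassium channel gene, had 0 counts in thymus and 144 in the lymphomas, at least 17.2-fold higher when 3 counts are assumed over the thymus group. It was still scarce, at most 2.42 CPM.

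Inppl1, Il9r and Chdh had among the smallest spreads of the genes that changed at least 4-fold. Inppl1, which encodes the inositol phosphatase SHIP2, ranged from 63.6 CPM (lymphoma 32) to 98.1 CPM (lymphoma 20) with a median of 76.2 CPM against 9.47, 8.61 and 8.33 CPM, and had an adjusted p of 8.57e-11 (log2 fold change of 3.13 ± 0.18 (SE)). Il9r, the interleukin-9 receptor, ranged from 94.6 CPM (lymphoma 19) to 182 CPM (lymphoma 32) with a median of 121 CPM against 9.29, 8.84 and 11.7 CPM (log2 fold change of 3.74 ± 0.32 (SE), adjusted p = 7.29e-08). Chdh, choline dehydrogenase, ranged from 383 CPM (lymphoma 18) to 805 CPM (lymphoma 30) with a median of 448 CPM against 131, 96 and 125 CPM (log2 fold change of 2.03 ± 0.36 (SE), adjusted p = 0.000231). For all 3 genes the lowest lymphoma was above the highest thymus sample. Among the largest rises with every lymphoma above thymus were Aif1l, a calcium-binding actin protein (6.97, adjusted p = 3.71e-06), and Cym, which encodes chymosin (9.26, adjusted p = 0.000134, not called by limma-voom at 0.0708). Trnp1 ranged from 6.41 CPM (lymphoma 18) to 147 CPM (lymphoma 19) with a median of 38.4 CPM against 0, 0.118 and 0.0731 CPM (log2 fold change of 9.49 ± 1.79 (SE), adjusted p = 0.000389). Nr3c2, the mineralocorticoid receptor, had 2 counts in thymus and 2272 in the lymphomas, a ratio per total count of 407 with an exact 95% counting interval of 112 to 3360. Glp1r, the glucagon-like peptide receptor, had 3 against 2558 counts, a ratio of 305 (104 to 1481). These intervals cover counting error only. Tmem132b had 3 against 6602 counts, a ratio of 788 (269 to 3821). Of the other largest rises, Hc, which encodes complement C5, had a log2 fold change of 6.89 (adjusted p = 0.00267), the homeobox gene Dlx1 6.65 (adjusted p = 0.021), Sh3rf3 7.65 (adjusted p = 0.0143), Wisp1 7.93 (adjusted p = 0.0293) and Sall3 8.48 (adjusted p = 0.0191). All 10 lymphomas were above thymus for each, which the choice of these genes required. Calls were lost without thymus sample 1, 2 or 3 for Dlx1 (adjusted p = 0.0832, 0.0707 and 0.0795), Wisp1 (0.0972, 0.105 and 0.0908) and Sall3 (0.0624, 0.0782 and 0.0755), and without sample 1 or 3 for Sh3rf3 (0.0674 and 0.0608). By limma-voom, Dlx1, Wisp1, Sall3, Sh3rf3 and Tmem132b were not called (adjusted p = 0.0777, 0.281, 0.291, 0.0834 and 0.267).

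The most variable called genes were high in some lymphomas and near 0 in others, and for several the low ones were again lymphomas 18 and 35. Cacna1c, a calcium channel gene, was 0.0637 and 0.214 CPM in lymphomas 18 and 35, 5.94 to 91.4 CPM in the others and 0.323, 0.197 and 0.292 CPM in thymus (log2 fold change of 7.21 ± 2.32 (SE), adjusted p = 0.0191). Sertad4 was 1.78 and 0.0714 CPM in these 2, 22.4 to 252 CPM in the others and 2.13 to 2.89 CPM in thymus (4.74, adjusted p = 0.0266). Arhgef10l was 1.02, 0.535 and 2.84 CPM in lymphomas 18, 35 and 19, 62 to 429 CPM in the other 7 and 4.81 to 5.55 CPM in thymus (4.62, adjusted p = 0.0474). Necab1 was at most 0.606 CPM in lymphomas 18, 31 and 35 and 6.86 to 205 CPM in the other 7, against 0.197 to 0.365 CPM (8.20, adjusted p = 0.0167). Cd6, a partner of Cd5 on T cells, had its lowest values in lymphomas 20 and 34, as Cd5 did (0.546 and 0.976 CPM, against 11.9 to 203 CPM in the other 8 and 391 to 469 CPM in thymus), and fell with a log2 fold change of -2.86 (adjusted p = 0.00843). Ripk4, a kinase of epithelial cells, was below thymus in lymphoma 19 (0.185 CPM) and above it in the other 9, up to 182 CPM (7.69, adjusted p = 0.0111). Calls in this group rested on the 3 thymus samples. Without sample 1, 2 or 3 the adjusted p was 0.0717, 0.0812 and 0.0685 for Cacna1c, 0.0898, 0.1 and 0.0824 for Sertad4, 0.0692, 0.0738 and 0.0605 for Necab1 and 0.139, 0.137 and 0.125 for Arhgef10l, which was also lost without lymphoma 20, 21, 22, 30, 31, 32 or 34 (from 0.0517 to 0.0603) and in the 13-library fit (0.056). Ripk4 was lost without sample 1 or 2 (0.0507 and 0.0551). Cacna1c, Sertad4, Arhgef10l, Necab1 and Ripk4 were not called by limma-voom (adjusted p = 0.354, 0.576, 0.623, 0.431 and 0.173).

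Some were found in no thymus sample or nearly none. Vgll1, a cofactor of TEAD factors, had 0 counts in thymus, 0 CPM in lymphoma 19, 2.18 to 2.57 CPM in 3 lymphomas and 32.9 to 130.4 CPM in the other 6. Its level over the group was at least 1012-fold higher than 3 counts in thymus. Igfbpl1 was at 0 in lymphoma 18, at or below 1.21 CPM in 5 more, and reached 227 CPM in lymphoma 19 and 105 CPM in lymphoma 30, again with 0 counts in thymus (at least 744-fold higher). Kank4, a cytoskeletal regulator, had 26.5 to 77.6 CPM in 6 lymphomas and at most 1.59 CPM in the other 4. None of these 3 was called by limma-voom (adjusted p = 0.183, 0.249 and 0.194), and without thymus sample 1, 2 or 3 neither Igfbpl1 (0.115, 0.117 and 0.107) nor Kank4 was called (0.0765, 0.0857 and 0.0708). Igfbpl1 was not called in the 13-library fit (0.0611).

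Among the largest falls, Zcchc12 and Lypd1 had 0 counts in all 10 lymphomas. Zcchc12 was 18.2, 19.9 and 17 CPM in thymus, at least 1374-fold lower in lymphomas at 3 counts over the group, and Lypd1 was 16.3, 15.3 and 15 CPM, at least 1165-fold lower. Smoc1, a secreted calcium-binding protein, ranged from 0 CPM (lymphoma 19) to 4.08 CPM (lymphoma 32) with a median of 0.211 CPM against 90.2, 84.7 and 71.1 CPM (log2 fold change of -6.41 ± 1.14 (SE), adjusted p = 0.000231). Tdrp was 58.4 to 74.8 CPM in thymus and 0.0327 to 2.43 CPM, median 0.234 in lymphomas (log2 fold change of -7.02 ± 0.79 (SE), adjusted p = 2.05e-06). The amino acid transporter gene Slc6a19 was 45 to 75.9 CPM in thymus and 0 to 2.42 CPM, median 0.434 in lymphomas (log2 fold change of -6.27 ± 0.86 (SE), adjusted p = 1.93e-05). The falls of Epb41l4b, Gpc2, Pcbp3, Adam12, Car2, Tctex1d1 and Psd3 had log2 fold changes of -7.44, -6.39, -6.47, -7.21, -5.57, -5.61 and -4.90, with adjusted p from 4.16e-06 to 0.000575. For all 12 of these genes every lymphoma was below every thymus sample, which the choice of all but Psd3 required.

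Markers of other cells moved too. Of 13 markers of thymic epithelium, the stroma that supports thymocytes, 12 were tested, 0 rose and 7 fell, or 4 without thymus sample 2. Their summed level was 26.7 to 75.8 CPM in lymphomas and 85.5 to 133 CPM in thymus. Prss16, a protease of cortical epithelium, was at 0 in 3 lymphomas and at most 0.351 CPM in the rest, against 11.4, 33.7 and 25.8 CPM (log2 fold change of -7.77 ± 0.73 (SE), adjusted p = 3.34e-07). Psmb11, the cortical proteasome subunit, had 3 counts in the lymphomas and 92 in thymus, a ratio of 85.7 (28.4 to 423). Of 12 neutrophil markers, 0 rose and 10 fell, with a summed level of 2.19 to 81 CPM against 62.2 to 116 CPM. Lymphoma 19 was the highest of the 10, and the other 9 were at most 22.7 CPM.

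Macrophage and monocyte markers rose. Of 16, 13 rose and 0 fell, with a median of 1.84, and their sum was 449.8 CPM (lymphoma 35) to 1511 CPM (lymphoma 19), median 602, against 181 to 259.6 CPM. Arg1, arginase of alternatively activated macrophages, ranged from 11.4 CPM (lymphoma 31) to 175 CPM (lymphoma 19) with a median of 29 CPM against 0.143, 0.118 and 0.0365 CPM (log2 fold change of 8.67 ± 1.26 (SE), adjusted p = 3.46e-05), highest in lymphoma 19, which also had the highest macrophage sum. Of 13 fibroblast markers, 8 rose and 0 fell, and 5 rose without thymus sample 1. Their sum, to which the T-cell gene Thy1 belongs, was 1218 to 2961 CPM against 2303 to 2482 CPM. The part of these cells in the rises of Arg1, Pdgfra and Pdgfrb was not tested. No marker of either list was at 0 over the thymus samples.

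Of 11 natural killer and cytotoxic markers tested, 2 rose and 7 fell. Gzma, a granule protease, ranged from 88.5 CPM (lymphoma 31) to 2704 CPM (lymphoma 18) with a median of 498 CPM against 85.8, 106 and 98.5 CPM and rose (log2 fold change of 3.13 ± 0.88 (SE), adjusted p = 0.00819), whereas Klrd1, Ncr1 and Nkg7 fell (-2.92, -3.15 and -2.93). Without thymus sample 1, 2 or 3, neither Ncr1 (adjusted p = 0.0923, 0.118 and 0.0557) nor Nkg7 (0.0581, 0.098 and 0.0629) was called, and the number of the 11 that fell was 2, 2 and 3. Ncr1 was not called by DESeq2 either (0.136). The summed level of 105 to 2763 CPM, against 139 to 187 CPM, followed Gzma. No B-cell marker of 10 was called, and their sum was highest in lymphomas 35 and 18 (257 and 138 CPM) against 55.4 to 92.7 CPM in thymus and at most 85.1 CPM in the other 8. These are the 2 lymphomas low in Notch1, Ptcra and Rag1, and the part of B cells in those levels was not tested. Of 10 dendritic cell markers 1 rose and 1 fell, of 3 endothelial markers tested none was called, and of 8 erythroid markers 2 rose, Tfrc and Klf1. Their summed levels in lymphomas were 72 to 1111, 91.2 to 254 and 310.3 to 1429 CPM, in that order, against 1069 to 1211, 144 to 154 and 168 to 202 CPM in thymus. The median log2 fold changes of these lists were 0.03, -0.12 and 0.24, so the sums can follow single members. The dendritic list shares Ccr9 with the double-positive markers.

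Median expression over whole chromosomes showed a shift shared by 7 of the 10 lymphomas. The median log2 ratio to thymus over 378 genes of chromosome 15 was 0.55, 0.38, 0.41, 0.46, 0.43, 0.48 and 0.44 in lymphomas 18, 20, 22, 30, 32, 34 and 35. It was 0.11 in lymphoma 31, -0.03 in lymphoma 19 and -0.08 in lymphoma 21, and the thymus samples lay between -0.04 and 0.07. The shift was uneven along chromosome 15. In the window from 5 to 10 Mb (12 genes) the 7 lymphomas lay between -0.14 and 0.34, and from 85 to 90 Mb between -0.01 and 0.41. From 30 to 35 Mb (10 genes) they lay between 1.00 and 1.21. Lymphomas 19, 21 and 31 had 0.71, 0.65 and 0.52 there. Of the 497 tested genes placed on chromosome 15, 153 rose (30.8%) and 38 fell (7.65%), against 17.5% and 17.7% of all other tested genes. Myc lies there. Its level was 179.7 CPM, the second lowest, in lymphoma 18, which had the highest chromosome 15 median, and 322 CPM in lymphoma 21, which had the lowest. Lymphoma 18 was also low in Notch1. Any relation of Myc to the chromosome 15 median over the 10 lymphomas was not tested. Chromosome 14 had medians of 0.46, 0.28 and 0.26 in lymphomas 30, 32 and 20, and chromosome 16 had 0.25 and 0.20 in lymphomas 34 and 21 and -0.23 in lymphomas 18 and 22. Chromosome 18 had 0.40 in lymphoma 35 and chromosome X had 0.23 in lymphoma 32. On all remaining chromosomes the 10 lymphomas lay between -0.30 and 0.19. In lymphoma 22 low values lay in the first 20 Mb of chromosome 16, from -0.71 to -1.18 over 4 windows. Lymphoma 18 was low from 5 to 15 Mb (-0.59 and -1.02) and from 40 to 45 Mb (-0.82). From 45 to 50 Mb every lymphoma but 34 (0.04) lay between -1.29 and -0.74, with -0.88 in lymphoma 22 and -1.05 in lymphoma 18. No genome copy number was measured.

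**Figure D4:**
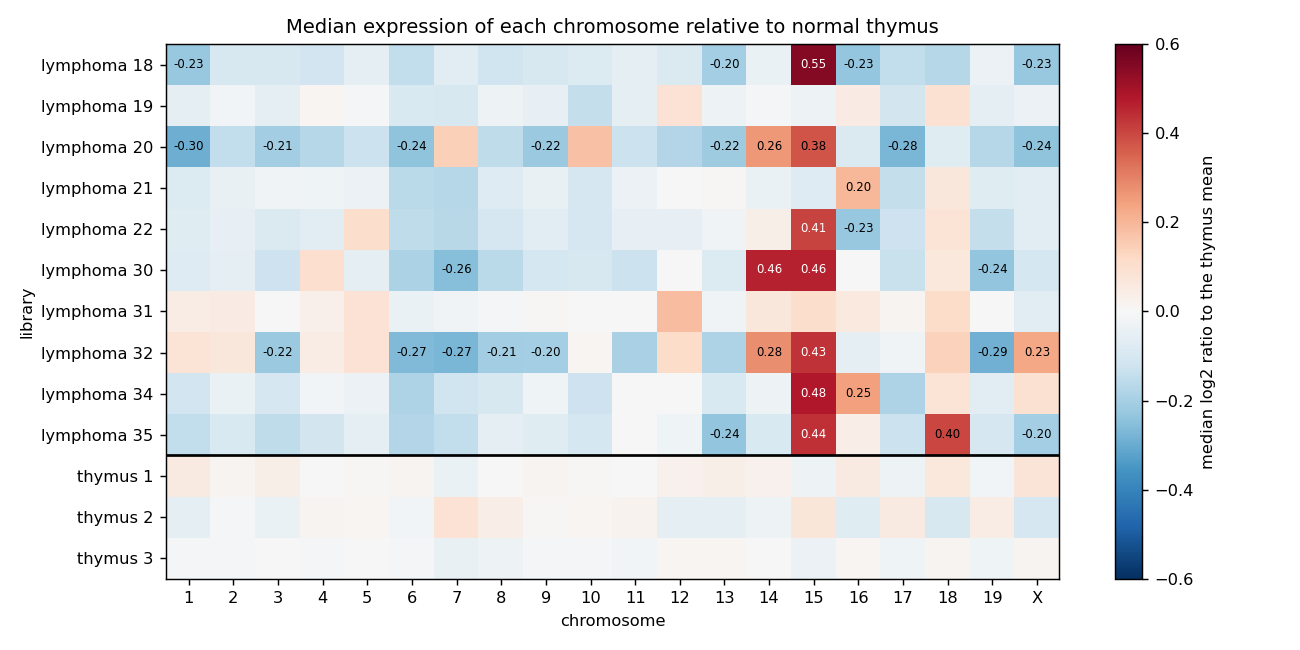
Median log2 ratio to the thymus mean for each chromosome (columns) in each lymphoma and thymus sample (rows), over genes with a thymus mean of at least 5 CPM; red is higher and blue lower, and values of at least 0.2 in size are printed. Chromosome 15 is high in 7 of 10 lymphomas (0.38 to 0.55), and the 3 thymus rows are near 0 throughout.

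Whether these patterns belong to the unmutated lymphomas was tested against the 11 lymphomas of the mutated set in the same fit. Between the sets 706 genes were called (5.38%), of which 387 were higher in the unmutated set (2.95%) and 319 lower (2.43%). Called differences of at least 2-fold were 85 higher (0.648%) and 122 lower (0.930%). The count of called genes fell to 246 without lymphomas 18 and 35, and leaving out 1 library at a time moved it between 301 (lymphoma 34) and 1221 (lymphoma 31). Of the genes above, Ikzf1, Notch1, Myc, Bcl11b, Trp53 and Cdkn2a did not pass this test, with adjusted p of 0.276, 0.74, 0.904, 0.877, 0.612 and 0.508. Of 28 ribosome biogenesis genes 1 was called, Bop1.

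Many of the genes higher in the unmutated set lay on chromosome 15. Of its 497 tested genes, 93 were higher (18.7%) and 4 lower, whereas of all other tested genes 2.33% were higher. Per lymphoma, the chromosome 15 median was 0.315 ± 0.227 (SD, n = 10) in the unmutated set and 0.0008 ± 0.181 (SD, n = 11) in the mutated set. A 2-sided permutation test with 100000 resamples gave p = 0.0044 for this difference, and 0.0880 after adjustment over 20 chromosomes, which misses the threshold. In the mutated set lymphomas 12 and 9 were highest, with 0.48 and 0.20. Thus 7 of 10 unmutated lymphomas and 1 of 11 mutated ones had a median of at least 0.38, and the ranges of the sets overlap. The next smallest adjusted p of the 20 chromosomes was 0.418.

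**Figure D5:**
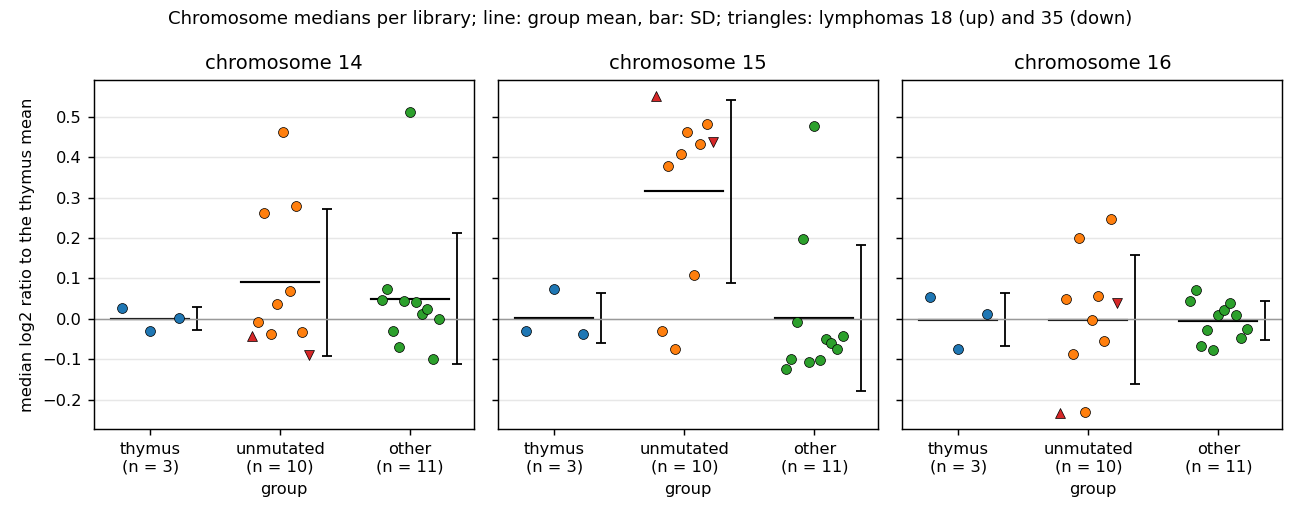
Median log2 ratio to the thymus mean for chromosomes 14, 15 and 16 in each thymus sample (n = 3), unmutated lymphoma (n = 10) and lymphoma of the other, Ikzf1-mutated set (n = 11); lines are group means and bars SD, and red triangles mark lymphomas 18 and 35. Chromosome 15 medians are 0.38 to 0.55 in 7 unmutated lymphomas and 0.48 in 1 mutated lymphoma.

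Among single genes, Kit was higher in the unmutated set. Of 20 growth factor and cytokine receptors it was the 1 called higher, and 2 were called lower. Of all tested genes 2.95% were called higher and 2.43% lower. Kit was 0.393 to 211 CPM, median 59 in the unmutated lymphomas and 0.266 to 8.19 CPM, median 1.85 in the mutated ones. Of the unmutated lymphomas, 7 were above every mutated lymphoma, while lymphomas 19, 31 and 21 were not (log2 fold change of 4.55 ± 0.80 (SE), adjusted p = 0.0101, not called by limma-voom at 0.179). Cd276, an immune checkpoint molecule, was 0.0514 to 28.5 CPM, median 1.21 in the unmutated and 0 to 0.418 CPM, median 0.0886 in the mutated set, with 7 of 10 above all 11 (log2 fold change of 5.43 ± 0.95 (SE), adjusted p = 0.0101, and a log2 fold change of 4.39 without lymphoma 35). Cox6c and Cyc1, respiratory chain subunits on chromosome 15, were higher by 0.86 and 0.62 on the log2 scale (adjusted p = 0.00241 and 0.0101). In the oxidative phosphorylation list 8 of 27 genes were higher, beside 2.95% of all tested genes. In the mitosis list 5 of 24 genes were higher, and 0 genes of either list were lower. These counts were not repeated without lymphomas 18 and 35. Prlr, also on chromosome 15, was called higher (adjusted p = 0.0483) on the strength of lymphoma 18 alone, at 207 CPM against at most 1.6 CPM in the other 9. Without that lymphoma its direction reversed (log2 fold change -0.96, adjusted p = 0.468). The call was also lost without any 1 of 15 other lymphomas (adjusted p from 0.0516 to 0.0755) and with limma-voom (0.736).

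Adgrg7 and Zcchc5 were also called higher (adjusted p = 0.0242 and 0.0185), each from a few lymphomas. Adgrg7 was 3.61 to 21.4 CPM in lymphomas 30, 34, 20 and 21 and at most 0.0714 CPM in the other 6, and Zcchc5 was above 1.9 CPM only in lymphomas 34 and 21 (17.4 and 35.5 CPM). Neither was called by limma-voom (0.52 and 0.25).

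Lower in the unmutated set were 5 of 25 genes of the T-cell receptor and its signalling and 3 of 17 immediate-early genes, beside 2.43% of all tested genes. Rasgrp1 was 127 to 794 CPM, median 448 in the mutated set, against 8.19 to 262 CPM, median 134 in the unmutated one (log2 fold change of -1.86 ± 0.47 (SE), adjusted p = 0.0255). Egr3, an early response factor, was 1.48 to 34.4 CPM, median 5.99 against 0.308 to 3.77 CPM, median 1.36 (log2 fold change of -2.70 ± 0.57 (SE), adjusted p = 0.0137), and Egr1 was lower with -2.09 (adjusted p = 0.0287). Without lymphomas 18 and 35, Rasgrp1 and Egr1 were no longer called (adjusted p = 0.0578 and 0.0688), and Egr1 was not called without lymphoma 22 or 35 alone (0.0511 and 0.0501). Of the Ikaros relatives, Ikzf2 was 39.1 to 216 CPM, median 128 in the unmutated and 115 to 622 CPM, median 292 in the mutated set and lower in the former (log2 fold change of -1.34 ± 0.34 (SE), adjusted p = 0.0255). Ets1, a transcription factor of T cells, was lower too (log2 fold change of -0.68 ± 0.15 (SE), adjusted p = 0.0151). Igf2, an imprinted growth factor, was at 0 in 6 unmutated lymphomas and at most 0.234 CPM in the others, while the mutated set spanned 0 to 469 CPM, median 0.134 (log2 fold change of -10.08 ± 2.13 (SE), adjusted p = 0.0134), so that at least 6 of its 11 lymphomas were low as well (not called by limma-voom at 0.226). The desmoglein gene Dsg2 (-5.94, adjusted p = 0.0316), Sim2 (-6.18, adjusted p = 0.0487), Susd4 (-6.06, adjusted p = 0.0212) and Wwc1 (-5.94, adjusted p = 0.0337) were called lower as well and were at most 3.74 CPM in every unmutated lymphoma. Without lymphomas 18 and 35 none of these 4 was called, with adjusted p of 0.0661, 0.112, 0.0603 and 0.0874. For 3 of them, 1 mutated lymphoma moved the value most. Without lymphoma 15 of the mutated set, Dsg2 had a log2 fold change of -0.49 (adjusted p = 0.7). Without lymphoma 12 of that set, Sim2 had -2.88 (adjusted p = 0.2) and Wwc1 had -2.99 (adjusted p = 0.134). The call of Dsg2 was also lost without unmutated lymphoma 22, 30, 34 or 35 (from 0.0501 to 0.0627), that of Wwc1 without 18, 22, 30, 34 or 35 (from 0.0551 to 0.064), and that of Sim2 without any 1 of 12 other lymphomas (from 0.0521 to 0.0884). None of the 4 was called by limma-voom (adjusted p = 0.577, 0.604, 0.22 and 0.533 for Dsg2, Sim2, Susd4 and Wwc1), and Wwc1 was not called by DESeq2 (0.0984).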

How the data were processed

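Poly(A) RNA-seq counts of 10 lymphomas without Ikzf1 mutation, 3 normal thymus samples and 11 other lymphomas were analysed. The authors deposited raw read counts per gene symbol in 1 table of all samples and in filtered tables, whose column names give mutation status. HTSeq 0.6.1, edgeR, SAMtools, HISAT2 2.0.1 and cutadapt 1.9.1, and the build GRCm38.p6, are named in the submitters' processing notes. No source used here states how strand was handled. The authors' filtered table of this comparison holds 12109 of 21878 genes, with the same counts. The authors' TPM and CPM tables were not used. All 51 columns of samples were mapped by name.

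Counts were fitted with edgeR 4.0.16 in R 4.3.3 (TMM, filterByExpr, quasi-likelihood test, Benjamini-Hochberg adjustment, threshold 0.05) over 24 libraries in 3 groups, leaving 13121 genes. The script was tested on simulated counts. SE was derived from the quasi-likelihood F statistic. Alternatives were relative log expression size factors, no filter, the authors' filtered genes, DESeq2 1.42.0, limma-voom (limma 3.58.1), the 13 libraries alone and leaving out each library. Leaving out lymphomas 18 and 35 together, the chromosome 15 and 16 windows and the permutation test between the sets were chosen after seeing the data. Chromosome values are medians of log2 ratios over genes with a thymus mean of at least 5 CPM, placed with GENCODE on GRCm38 (96.2% of tested genes). Genes at 0 in a group were given a lower bound from 3 counts over the group, and those at 1 to 3 counts an exact 95% interval.

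The lymphoma set and the gene lists were chosen with earlier results of these data known. Named genes are a fixed set of candidates, the 12 largest rises and falls without overlap whose higher group had a mean of 10 CPM or more, the 5 largest differences in each direction between the lymphoma sets, up to 5 members per list by smallest p, and the 10 most variable and 10 most even changes. Gene models known by a number were counted and not named, and some named results are not reported here. Of list members outside this rule, those that show how lymphomas differ were chosen after their values were seen. Promoters came from the RefSeq table of GRCm38.p6, which held 10036 of the tested genes.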

Additional observations from a re-analysis of the deposited data

Results flagged for a closer look

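In the 10 unmutated lymphomas, 32 of the 158 named genes had 1 lymphoma far from the other 9 by Dixon's criterion, which chance alone meets in about 1 in 20 groups. The test was made on CPM, which are skewed for many of these genes. Some of the genes were named because they varied among these same lymphomas, so their share is not to be set against that rate.

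Lymphoma 31 was highest for thymocyte genes, with 637 CPM of Cd8b1, 856 CPM of Rmnd5a, 149 CPM of Bcl2l1, 203 CPM of Cd6 and 625 CPM of Btg2. It was also highest for Fbxw7 at 66.2 CPM, Maml1 at 77.5 CPM and Adam12 at 1.21 CPM. Lymphoma 20 was highest for Heyl at 309 CPM, Myc at 537 CPM, Maml2 at 21.7 CPM and Dlx1 at 136 CPM, and for the scarce transcripts of Igf2 at 0.234 CPM, Sim2 at 0.546 CPM and Wwc1 at 0.741 CPM. It was lowest for Tcf7, at 1400.4 CPM against 2523 to 3161 CPM in the other 9.

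Lymphoma 35 was highest for Grb10 at 22.2 CPM, Cd276 at 28.5 CPM, Klrd1 at 4.78 CPM, Tdrp at 2.43 CPM, and Mycn and Ncr1 at 0.4995 CPM each. Lymphoma 18 was highest for Prlr at 207 CPM and Pdgfra at 25.9 CPM. Lymphoma 19 was highest for Arg1 at 175 CPM, Atf3 at 13.5 CPM and Igfbpl1 at 227 CPM.

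The remaining single high values were Cdkn2a at 75.7 CPM in lymphoma 32, Slc7a11 at 93.7 CPM in lymphoma 34, Chdh at 805 CPM in lymphoma 30, and Susd4 at 3.74 CPM and Zcchc5 at 35.5 CPM in lymphoma 21.

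Leaving out the lymphoma that stood apart moved some fold changes against thymus, taken without the logarithm, by more than 1.5 times and left their calls in place. Without lymphoma 31, Cd8b1 had a log2 fold change of -3.82 and Adam12 of -8.52. Without lymphoma 35, Klrd1 had -3.70, Mycn -7.50, Ncr1 -4.30 and Tdrp -7.81. Without lymphoma 19, Arg1 had 8.05 and Igfbpl1 11.47.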

How the results depend on the processing

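Against thymus, the count of called genes stayed within 1.5 times of 4642 in the alternatives of normalization, filter, tool and library set (4438 to 5228), and ran from 2856 to 4895 with 1 library left out. It was lowest without thymus sample 2 (2856) or 1 (2958). With limma-voom the split was 1905 higher and 2723 lower, against 2366 and 2276. Against the other lymphomas, 706 genes became 1275 with DESeq2, 246 without lymphomas 18 and 35, and 301 to 1221 with 1 library left out. Counts differed by over 1.5 times without unmutated lymphoma 18 (409), 22 (414), 30 (420.0), 31 (1221), 34 (301) or 35 (417), or without lymphoma 17 of the other set (447).

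Of the 131 named genes called against thymus, 100 kept their call in every alternative run and 31 lost it in at least 1. The direction of Ptcra against thymus reversed with limma-voom (log2 fold change -0.90). Prlr against the other lymphomas reversed with DESeq2 (-0.25), without lymphomas 18 and 35 (-0.89) and without lymphoma 18 (-0.96). Myc, not called there, changed sign without lymphomas 18 and 35 (0.11), without 18 (0.01) or 35 (0.03) alone, and without lymphoma 13 (0.0330), as Bcl11b did without lymphoma 18 (0.01) or lymphoma 2 (0.0205). Leaving out 1 library, the log2 fold changes between the lymphoma sets ran from -0.96 to 5.51 for Prlr, from -0.20 to 0.0330 for Myc and from -0.21 to 0.0205 for Bcl11b. The cause was not tested. The chromosome 15 medians of the 7 high lymphomas ranged from 0.38 to 0.58 over the alternatives. No paired analysis was possible because the groups compared share fewer than 2 replicate numbers. With 3 thymus samples, changes of low genes and genes at a few counts were the least certain.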
